A study of Mus musculus with 11 samples.

Results

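L1Md_A is a young mouse LINE1 subfamily, and its copies in the genome were taken here one by one and grouped by length. A copy was kept where its TPM (reads per length of the copy, scaled to a fixed sum over all TE copies of each library) was above 0 in at least 1 library, which left 5725 of the 16844 L1Md_A copies in the table. Of these, 2400 were annotated at 5000 bp or more and 3325 were shorter. The whole table holds 3725827 TE copies, of which 578629 were above 0. The poly-A RNA came from testes of C57Bl6/J mice at postnatal day 5, when the germ cells are spermatogonia and their precursors. There were 2 libraries of wild type (WT), 3 of Dnmt3CKO/KO mice (Dnmt3C KO), 3 of mice that lack Nrf1 in the germline (Nrf1 cKO) and 3 that lack both (dKO). Nrf1 was removed with the germ cell driver Ddx4-Cre from a floxed allele over a null allele, so somatic cells kept a working copy. The Dnmt3C deletion is constitutive. The labels name germ cells, with somatic cells beside them, and the study describes whole testes. Markers of Sertoli cells, the somatic supporting cells, were high in every library.

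A full-length LINE1 element carries a promoter at its 5′ end, followed by 2 open reading frames. In the mouse this promoter is built of short units, called monomers, that repeat head to tail, so elements of one subfamily differ in length by how many monomers they kept. Most genomic copies have lost their 5′ end and with it the promoter. In male germ cells, young LINE1 promoters are methylated before birth under the guidance of piRNAs, and the rodent enzyme DNMT3C does this at young retrotransposons. NRF1 is a transcription factor whose binding to DNA is hindered by methylation of the CpG sites in its motif.

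The repeated units can be read at the 5′ end of 3 of the copies, which were chosen because their first 500 bp overlap a promoter window of 300 bases in RefSeq (GRCm38.p6), not for their values. All lie on the minus strand and are printed along it, with every CpG in capitals. L1Md_A_dup5525, 9025 bp long at chr6:67000618-67009642, had 51 reads in all, and its window matched itself at a shift of 208 bp with 96.7% identity over 92 bases. A stretch of 30 bases at chr6:67009208-67009237, which starts 405 bp from the 5′ end, and the stretch 208 bp further into the element, at chr6:67009000-67009029, were the same at 30 of 30 bases:
L1Md_A_dup5525, stretch nearer the 5′ end: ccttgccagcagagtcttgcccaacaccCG
L1Md_A_dup5525, stretch further in: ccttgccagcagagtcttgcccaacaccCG

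L1Md_A_dup12318 (6575 bp, chr11:41703923-41710497, 4 reads in all) repeated at the same shift of 208 bp with 97.8% identity. L1Md_A_dup2075 (6384 bp, chr2:145236291-145242674, 21 reads) repeated at 201 bp with 99.0% identity. The CpG-dense part of the unit is shown for each copy, at chr6:67009035-67009064, chr11:41710259-41710288 and chr2:145242454-145242483:
L1Md_A_dup5525: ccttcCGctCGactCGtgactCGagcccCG
L1Md_A_dup12318: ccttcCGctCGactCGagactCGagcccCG
L1Md_A_dup2075: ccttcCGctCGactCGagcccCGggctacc

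These stretches held 5, 5 and 4 CpG. The 3 windows held 15, 19 and 15 CpG, against a median of 7 over the 32851 promoter windows. The palindrome GCATGC, the core of the NRF1 motif, was found on neither strand of the 3 windows and in 7.93% of all windows. The windows cover a part of each 5′ end only.

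Total counts were between 26063590 and 39365841 per library over genes and TE subfamilies. TPM times copy length came out as a whole multiple of one value in each library for 100% of copies, so the whole reads behind each copy could be recovered, 52174 reads on L1Md_A copies in all. These reads made up 86.4 to 91.7% of the counts given to the L1Md_A subfamily. CPM below are reads scaled to the total counts of the library, with TMM factors. The labels cannot be checked on the deleted genes, since Nrf1 is kept in somatic cells and Dnmt3c reads can come from the exons that remain: Nrf1 was between 45.0 and 60.8 CPM and Dnmt3c between 3.02 and 4.94 CPM with no order by genotype. Of 29 germ cell markers tested, 22 were lower in Nrf1 cKO than in WT (against 4.22% of all features) and 5 were lower in dKO than in WT (against 1.19%) at an unadjusted p under 0.05 by edgeR. None was called by edgeR, while DESeq2 called Dazl and Rnf17 as lower in Nrf1 cKO than in WT. Ddx4, a germ cell RNA helicase, had 65.7 and 60.8 CPM in WT and 85.2, 54.8 and 72.0 in Dnmt3C KO, against 39.1, 17.5 and 19.8 in Nrf1 cKO libraries and 55.4, 52.4 and 27.2 in dKO. Fewer germ cells and less RNA per germ cell cannot be told apart in these bulk samples.

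L1Md_A reads were spread thinly over many copies. Among the 5725 copies, 1704 had 1 read in all 11 libraries together, 4875 had at most 10, and 36 had more than 100. Only 48 were above 0 in every library, 14 of them of 5000 bp or more, while 1941 were above 0 in dKO libraries only, 802 of them of 5000 bp or more. The dKO libraries held 6276, 10610 and 9551 L1Md_A reads, and no other library held more than 4206. The share of all TE copies found in dKO only was not computed, so the count of 1941 describes detection. The length limit itself marked no step: the 19 copies less than 50 bp below it had 89 reads and the 25 copies less than 50 bp above it had 81. Long copies were detected more often. Of the copies in the table under 1000 bp, 20.4% were above 0, and the share was 35.5% from 1000 bp, 46.1% from 3000 bp, 68.8% from 5000 bp, 75.0% from 6000 bp and 97.3% (107 of 110) from 7000 bp. A longer copy can take more reads at the same level, so these shares describe detection and not activity.

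The number of copies detected differed by genotype. WT libraries detected 769 and 829 L1Md_A copies, Dnmt3C KO 1146, 914 and 1057, Nrf1 cKO 451, 757 and 594, and dKO 1800, 2458 and 2144. The dKO range lies above all others, and that of Dnmt3C KO lies above WT and Nrf1 cKO. This did not follow the total of TE copies detected, which was 206978 in the first WT library and between 147012 and 205336 in dKO. Of all TE copies of 5000 bp or more that were detected, L1Md_A made up 12.4 to 17.6% in WT and Nrf1 cKO, 18.04 to 22.1% in Dnmt3C KO and 28.7 to 35.3% in dKO.

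In the deposited counts, the L1Md_A subfamily was 89.6 and 122.9 CPM in WT, 119.3, 118.1 and 134.6 in Dnmt3C KO libraries, 74.6, 98.2 and 97.6 in those of Nrf1 cKO and 198.9, 360.1 and 318.3 in the dKO. In CPM the dKO libraries were the 3 highest, and WT overlapped with both single mutants. In summed TPM of the copies dKO overlapped with the others. Its libraries had 854.2, 1330.7 and 2028.4, against up to 911.7 in WT, 1028.4 in Dnmt3C KO and 983.4 in Nrf1 cKO. For dKO over Nrf1 cKO, the log2 fold change of the counts was 1.70 (SE 0.22), and the adjusted p was 0.176 by edgeR's quasi-likelihood test and 6.1e-10 by DESeq2. For dKO over Dnmt3C KO it was 1.23 (SE 0.20), with an adjusted p of 0.398 by edgeR and 1.1e-06 by DESeq2. For Dnmt3C KO over WT it was 0.22 (SE 0.17), with an adjusted p of 0.953 by edgeR. For Nrf1 cKO over WT it was -0.24 (SE 0.20), with an adjusted p of 0.970, and this direction turned to 0.24 when summed TPM were used. Adjusted over all genes and TE subfamilies at a threshold of 0.01, edgeR called 0% of features in each of the 6 pairs of genotypes and for the interaction. DESeq2 called 0.0241% for dKO over Nrf1 cKO, 0.0704% for dKO over Dnmt3C KO, 0.012% for dKO over WT, 0.1% for Dnmt3C KO over WT, 0.108% for Nrf1 cKO over WT and 0.848% for Dnmt3C KO over Nrf1 cKO. In the last pair the log2 fold change of L1Md_A was 0.47 (SE 0.13), with an adjusted p of 0.259 by edgeR and 0.125 by DESeq2, and DESeq2 called 12 germ cell markers and 6 genes of the piRNA pathway list, all higher in Dnmt3C KO. The call on the dKO also depends on the filter, since edgeR with no filter on low counts gave adjusted p of 4.4e-04 (over Nrf1 cKO), 0.0039 (over Dnmt3C KO) and 7.4e-04 (over WT). The difference between the effect of Dnmt3C loss without and with Nrf1 (the interaction) was a log2 value of 1.47 (SE 0.30), and its adjusted p was 0.895 by edgeR and 0.056 by DESeq2. Its direction was shared by other young LINE1 subfamilies, with 1.14 in L1Md_Gf, 0.97 in L1Md_T and 0.78 to 0.81 in L1Md_F, L1Md_F2 and L1Md_F3 (edgeR adjusted p = 0.895 in each). L1Md_T was also higher in dKO, at 0.77 (SE 0.17) over Nrf1 cKO and 0.54 (SE 0.14) over Dnmt3C KO (DESeq2 adjusted p = 0.067 and 0.144).

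Splitting the subfamily at 5000 bp placed more of the dKO difference in the long copies. Copies of 5000 bp or more took 30.6 and 43.0 CPM in WT, 47.1, 38.2 and 54.8 in Dnmt3C KO libraries, 24.7, 34.1 and 30.2 in those of Nrf1 cKO and 97.0, 205.5 and 157.2 in the dKO. Shorter copies took 48.5 and 67.4 CPM in WT, 56.4, 68.7 and 64.0 in Dnmt3C KO libraries, 41.5, 53.8 and 54.1 in those of Nrf1 cKO and 79.6, 122.3 and 134.8 in the dKO. In CPM every dKO library was above every other library in both classes, and the single mutants overlapped with WT. In TPM the dKO libraries stood above all others in the long class only. In the shorter class the lowest dKO library (750.6 TPM) was below the highest of WT (863.2), Dnmt3C KO (956.2) and Nrf1 cKO (928.5). For dKO over Nrf1 cKO, the log2 fold change of the long class was 2.37 (SE 0.26) and that of the short class 1.17 (SE 0.20), with adjusted p of 0.066 and 0.617 by edgeR and 3.4e-17 and 2.0e-04 by DESeq2. For dKO over Dnmt3C KO they were 1.71 (SE 0.25) and 0.83 (SE 0.18), with adjusted p of 0.331 and 0.675 by edgeR and 2.7e-10 and 0.0099 by DESeq2. For Dnmt3C KO over WT they were 0.34 (SE 0.19) and 0.12 (SE 0.17), with adjusted p of 0.931 and 0.982 by edgeR. A separation of all dKO from all Nrf1 cKO libraries was seen for 4.8% of genes and TE subfamilies with at least 10 counts, of all dKO from all Dnmt3C KO libraries for 5.91%, and of all Dnmt3C KO from all WT libraries for 9.65%.

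The share of the long class within the subfamily does not depend on the scaling between libraries. As a share of L1Md_A TPM it was 5.42 and 5.32% in WT, 7.54, 5.99 and 7.02% in Dnmt3C KO libraries, 5.58, 5.61 and 5.69% in those of Nrf1 cKO and 12.1, 19.07 and 10.1% in the dKO. In TPM, with Nrf1 present and with Nrf1 removed, every Dnmt3C mutant library was above every library with intact Dnmt3C. In whole reads 1 Dnmt3C KO library (35.7%) was below both WT libraries (38.7 and 38.9%). The mean difference within the Nrf1 backgrounds was 4.82 percentage points, with p = 0.010 in a two-sided exact permutation test over 200 arrangements and an adjusted p of 0.040 over the 4 measures tested. With 1 WT, Dnmt3C KO or Nrf1 cKO library left out, fewer arrangements remain and the adjusted p of the permutation test was between 0.050 and 0.080. With all 11 labels permuted the adjusted p was 0.113, and over the copies above 0 in every library the difference was -0.42 points. As shares of whole reads the difference was 11.7 points, with an adjusted p of 0.060 in the exact permutation test. Among the other measures, summed L1Md_A TPM differed by 0.45 on the log2 scale (p = 0.090, adjusted p = 0.120 in the exact permutation test). The log2 ratio of L1Md_A to L1Md_T, another young subfamily, differed by 0.32 (p = 0.050, adjusted p = 0.10 in the exact permutation test). The share in the 10 highest copies of each library was lower by 9.01 points in the mutants (p = 0.215, adjusted p = 0.215 in the exact permutation test).

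**Figure D1:**
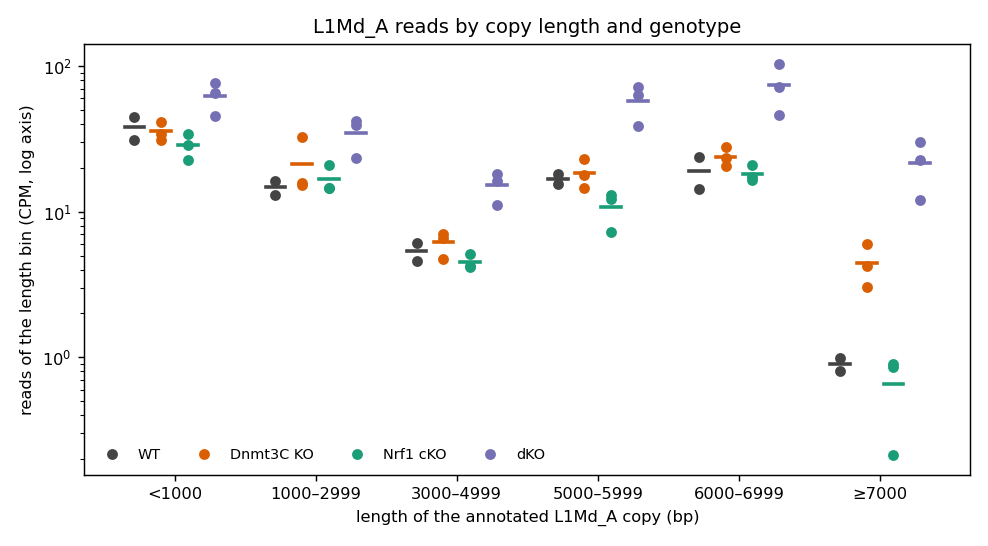
L1Md_A reads in 6 bins of annotated copy length (x axis, bp) for each library (points, CPM on a log axis), with the mean of each genotype as a bar. The mean of dKO is highest in every bin, with 1 Dnmt3C KO library (32.7 CPM) above the lowest dKO library (23.4 CPM) in the bin from 1000 bp, and at 7000 bp or more the 3 Dnmt3C KO libraries (3.03 to 5.98 CPM) also stand above WT (0.81 and 0.99 CPM).

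Among 6 bins of length, the largest log2 fold changes of Dnmt3C KO over WT, dKO over Nrf1 cKO and dKO over Dnmt3C KO lay in the longest copies. The limits of these bins, with that of 7000 bp, were chosen after seeing the data, so the fold changes and p-values of the bins are a description. Copies of 7000 bp or more took 30 and 33 whole reads in WT, 208, 119 and 134 in Dnmt3C KO libraries, 7, 33 and 22 in those of Nrf1 cKO and 428, 967 and 741 in the dKO. In CPM this was 0.81 and 0.99 in WT, 5.98, 3.03 and 4.26 in Dnmt3C KO libraries, 0.21, 0.90 and 0.85 in those of Nrf1 cKO and 12.0, 29.9 and 22.7 in the dKO. Dnmt3C KO and dKO stood apart from each other and from WT, while Nrf1 cKO overlapped with WT. The log2 fold change of Dnmt3C KO over WT was 2.29 (SE 0.38), with an adjusted p of 0.216 by edgeR and 2.1e-05 by DESeq2. That of dKO over Nrf1 cKO was 5.04 (SE 0.50), with an adjusted p of 0.050 by edgeR and 1.1e-10 by DESeq2. That of dKO over Dnmt3C KO was 2.28 (SE 0.34), with an adjusted p of 0.276 by edgeR and 2.9e-10 by DESeq2. That of Nrf1 cKO over WT was -0.47 (SE 0.62), with an adjusted p of 0.987 by edgeR. That of Dnmt3C KO over Nrf1 cKO was 2.76 (SE 0.50), with an adjusted p of 0.089 by edgeR and 6.5e-07 by DESeq2.

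By edgeR no bin passed the threshold for Dnmt3C KO over WT, and by DESeq2 that of 7000 bp or more did. In the other bins, the log2 fold change over WT was -0.09 (SE 0.19) under 1000 bp, 0.54 (SE 0.31) in the bin from 1000 bp, 0.20 (SE 0.27) from 3000 bp, 0.12 (SE 0.21) from 5000 bp and 0.33 (SE 0.22) from 6000 to under 7000 bp. The adjusted p of these 5 bins ran from 0.933 to 0.987 by edgeR, and DESeq2 called none of them. For dKO over Nrf1 cKO the log2 fold changes were 1.12 (SE 0.21), 1.06 (SE 0.24), 1.75 (SE 0.23), 2.42 (SE 0.27) and 2.02 (SE 0.26) in the same order. The bin from 5000 to under 6000 bp had the lowest log2 fold change of Nrf1 cKO over WT, -0.65 (SE 0.27, edgeR adjusted p = 0.851), with 15.5 and 18.3 CPM in WT and 7.26, 12.2 and 13.01 CPM in Nrf1 cKO.

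Compared within a library, copies of 7000 bp or more held 1.02 and 0.90% of L1Md_A reads in WT, 5.77, 2.83 and 3.58% in Dnmt3C KO libraries, 0.32, 1.02 and 1.01% in those of Nrf1 cKO and 6.82, 9.11 and 7.76% in the dKO. The mean difference between Dnmt3C mutant and intact libraries within the Nrf1 backgrounds was 5.11 points. The log2 ratio of their reads to those of the copies from 6000 to under 7000 bp had a WT mean of -4.36 ± 0.31 (SD, n = 2) and a Dnmt3C KO mean of -2.48 ± 0.45 (SD, n = 3). The mean of Nrf1 cKO was -5.05 ± 1.13 (SD, n = 3) and that of dKO -1.80 ± 0.14 (SD, n = 3), and the difference within backgrounds was 2.57. These 2 measures and the ratio to L1Md_T below rest on the limit of 7000 bp and are given as a description, with no test.

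L1Md_T is a young LINE1 subfamily that also has a monomer promoter. Its copies of 7000 bp or more, 178 detected of 213, took 119 and 138 reads in WT, 136, 107 and 127 in Dnmt3C KO libraries, 46, 92 and 75 in those of Nrf1 cKO and 248, 384 and 291 in the dKO. L1Md_T reads in Dnmt3C KO were thus within or close to the WT values, while those of dKO were above. The log2 ratio of L1Md_A to L1Md_T reads at this length had a WT mean of -2.03 ± 0.05 (SD, n = 2) and a Dnmt3C KO mean of 0.28 ± 0.29 (SD, n = 3). The mean of Nrf1 cKO was -1.99 ± 0.65 (SD, n = 3) and that of dKO 1.16 ± 0.32 (SD, n = 3). L1Md_T outnumbered L1Md_A in all 5 libraries with Dnmt3C intact, and L1Md_A outnumbered L1Md_T in all 6 Dnmt3C mutant libraries. The difference within the Nrf1 backgrounds was 2.73 on the log2 scale.

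The annotated length of a copy depended on the strand it is annotated on. Copies of 7000 bp or more numbered 103 on the minus strand and 7 on the plus strand, while those from 5000 to under 6000 bp numbered 174 and 1490, those from 6000 to under 7000 bp 1427 and 103, and pieces within 50 bp of 1000 bp 206 and 2994. Pieces on the same strand with a gap of at most 10 bp were therefore joined into elements. Joining gave 13735 elements, of which 269 were of 7000 bp or more, 143 on the minus strand and 126 on the plus strand, and 262 of these were detected. With all copies kept, edgeR gave dKO over Nrf1 cKO a log2 fold change of 2.23 for elements of 7000 bp or more and of 2.48 for those from 6000 to under 7000 bp, and that of dKO over Dnmt3C KO was 1.55 and 1.80, so the longest elements did not have the larger value. Of Dnmt3C KO over WT it was 0.83 and 0.19. The order for the dKO turned when the 3 copies with the most reads (described below) were left out. The log2 ratio of mean CPM in dKO over Nrf1 cKO was then 2.28 in the bin of 500 bp that starts at 5000 bp, 2.38 from 5500 bp, 1.94 from 6000 bp, 3.28 from 6500 bp, 4.54 from 7000 bp, 4.22 from 7500 bp and 4.53 at 8000 bp or more. For Dnmt3C KO over WT it was 0.27, 0.20, -0.07, 0.72, 1.72, 3.58 and 2.24 in the same order. These ratios are given as a description, since the bins and the copies left out were chosen after seeing the data.

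**Figure D2:**
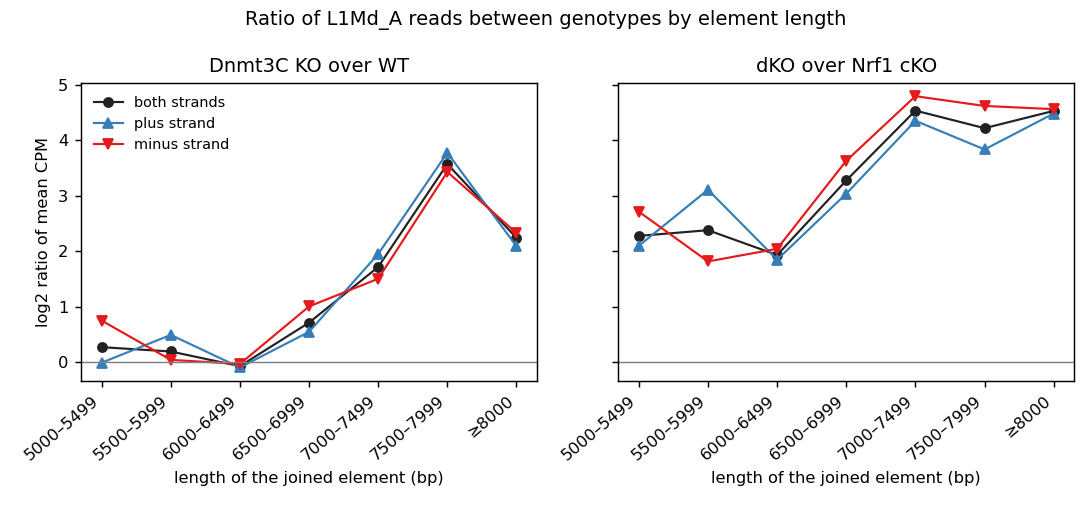
Log2 ratio of mean CPM (y axis) by length of the joined element (x axis, bins of 500 bp) for Dnmt3C KO over WT (left) and dKO over Nrf1 cKO (right), with elements of the plus strand, the minus strand and both drawn apart and the 3 copies with the most reads left out. From the bin at 6000 bp to that at 7000 bp the ratio rises on both strands, from -0.09 and -0.03 to 1.95 and 1.51 on the left and from 1.85 and 2.05 to 4.35 and 4.80 on the right.

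Of the bins from 5000 bp, that from 6000 to under 6500 bp held the most elements, 1963 with 1349 detected. They took 19.01 and 23.6 CPM in WT, 20.7, 15.6 and 24.7 in Dnmt3C KO libraries, 10.6, 16.6 and 16.5 in those of Nrf1 cKO and 36.7, 73.0 and 57.0 in the dKO. Dnmt3C KO straddled WT, and every Nrf1 cKO library was below WT. The share of all features with such a separation of Nrf1 cKO from WT was not counted. The 867 elements from 6500 to under 7000 bp took 6.80 and 8.96 CPM in WT, 13.6, 9.51 and 15.7 in Dnmt3C KO libraries, 3.34, 7.57 and 7.82 in those of Nrf1 cKO and 35.8, 82.4 and 63.8 in the dKO. Here every Dnmt3C KO library was above WT. The 60 elements from 7500 to under 8000 bp took 2 and 11 whole reads in WT, 108, 71 and 62 in Dnmt3C KO libraries, 9, 17 and 22 in those of Nrf1 cKO and 185, 458 and 336 in the dKO. The 69 of 8000 bp or more took 24 and 35 reads in WT, 179, 124 and 119 in Dnmt3C KO libraries, 25, 29 and 15 in those of Nrf1 cKO and 354, 772 and 507 in the dKO. Counts in WT and Nrf1 cKO are small in these bins, so the ratios against them carry a large counting error.

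A few copies took many reads in every genotype. The 3 copies with the most reads held 22.9% of all L1Md_A reads. L1Md_A_dup204, a piece of 311 bp at chr1:24611227-24611537 on the sense strand of an exon of the pseudogene Gm28439, had the highest mean TPM of all copies (329.6). It had 258 and 625 reads in WT, 243, 382 and 469 in Dnmt3C KO libraries, 274, 452 and 180 in those of Nrf1 cKO and 376, 180 and 1264 in the dKO. The dKO libraries held both the joint lowest and the highest value. L1Md_A_dup2194, 1714 bp in an intergenic region at chr3:5860824-5862537, had 211 and 259 reads in WT, 181, 980 and 181 in Dnmt3C KO libraries, 314, 301 and 342 in those of Nrf1 cKO and 229, 421 and 694 in the dKO. Every Nrf1 cKO library was above WT, a separation not counted over all features, and the other genotypes overlapped. L1Md_A_dup2463, 6021 bp at chr3:33618969-33624989, contains an exon of the processed pseudogene Gm5845 on the same strand. It had 190 and 379 reads in WT, 213, 379 and 316 in Dnmt3C KO libraries, 364, 380 and 171 in those of Nrf1 cKO and 322, 306 and 128 in the dKO. Its joined element is 7014 bp long, so it enters the class of 7000 bp or more once pieces are joined, and the log2 fold change of that class for Dnmt3C KO over WT was then 0.83 with it and 2.22 without the 3 copies, and that for dKO over Nrf1 cKO 2.23 and 4.47.

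**Figure D3:**
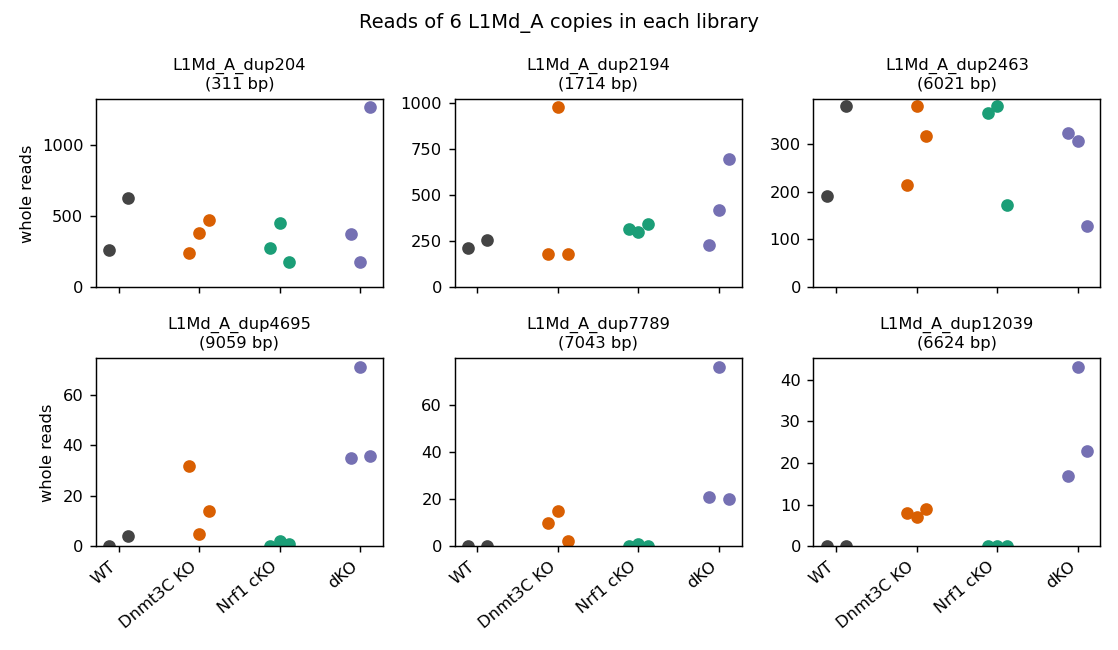
Whole reads (y axis, not scaled for depth) in each library (points) by genotype (x axis) for the 3 copies with the most reads (top) and 3 long copies that DESeq2 called in dKO over Nrf1 cKO (bottom). In the top row dKO overlaps with every other genotype, while in the bottom row dKO has between 17 and 76 reads, Dnmt3C KO between 2 and 32, and WT and Nrf1 cKO at most 4.

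TPM gives weight to short copies, and 8 of the 10 copies with the highest mean TPM were under 1000 bp. Beside the 3 above they were L1Md_A_dup13840 (322 bp, intergenic), L1Md_A_dup7776 (341 bp, intron of Slc17a5, sense), L1Md_A_dup11977 (45 bp, intron of Tmtc3, sense), L1Md_A_dup11888 (337 bp, exon of Gm3055, sense), L1Md_A_dup8529 (776 bp, intergenic), L1Md_A_dup15767 (282 bp, exon of H2-Q4, sense) and L1Md_A_dup4195 (284 bp, intergenic). L1Md_A_dup13840 had 13.02 and 31.6 TPM in WT, 23.5, 29.6 and 24.9 in Dnmt3C KO libraries, 43.1, 24.99 and 20.9 in those of Nrf1 cKO and 27.3, 25.02 and 21.4 in the dKO, so all genotypes overlapped. L1Md_A_dup15767, which lies in the MHC class I gene H2-Q4, had 10.7 and 22.6 TPM in WT and between 1.14 and 9.85 TPM in the other libraries, with an edgeR log2 fold change of -1.90 (SE 0.60, adjusted p = 0.425) for Dnmt3C KO over WT on its reads. The 10 copies summed to 491.7 of the 1013.9 mean TPM of L1Md_A. The shortest copy, L1Md_A_dup11829 (38 bp, chr10:66809502-66809539), had 2 reads, both in 1 dKO library, and the longest, L1Md_A_dup3797 (9892 bp, chr4:61678693-61688584), had 9 reads, 3 in Dnmt3C KO and 6 in dKO.

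Tests of single copies had little depth. With limma on log2(TPM + 1) over copies with a mean of at least 1 TPM, 81 L1Md_A copies could be tested, of which 6 were of 5000 bp or more, and no copy of any TE was called (0%) in the 4 pairs tested, namely Dnmt3C KO over WT, Nrf1 cKO over WT, dKO over Nrf1 cKO and dKO over Dnmt3C KO. At an unadjusted p under 0.05, limma had 1, 0, 1 and 2 L1Md_A copies higher and 0, 2, 0 and 2 lower in these pairs, while 5939, 7659, 8110 and 6064 of 148790 TE copies were past this p in either direction. Tests on the recovered whole reads were added after seeing the data. edgeR called 0% of copies in each pair, and at an unadjusted p under 0.05 it had 14 of 40 L1Md_A copies higher and 0 lower for dKO over Nrf1 cKO, with 576 of 10776 TE copies past this p in either direction. With TMM factors computed over copies this was 9 of 37 L1Md_A copies and 488 of 10947 TE copies, and the median log2 fold change of the L1Md_A copies tested went from 0.64 to -0.08 while that of all TE copies tested went from 0.31 to -0.01. DESeq2 called 0.809% of all copies for Dnmt3C KO over WT, 0% for Nrf1 cKO over WT and 0.0169% for dKO over Dnmt3C KO, with no L1Md_A copy among them. For dKO over Nrf1 cKO it called 0.894% of all copies, 0.875% as higher, and 8 of 40 L1Md_A copies, all higher, of which 6 were of 5000 bp or more. Copies pass the filter on reads in part through the group where they are high, and those without a read in Nrf1 cKO could be tested only through dKO. The counts of L1Md_A copies above and the p-values of single copies below are therefore a description.

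Of these 8 copies, 2 are intergenic copies on chromosome 18. L1Md_A_dup16433 (6276 bp) had no read in WT or Nrf1 cKO, 5, 5 and 1 reads in Dnmt3C KO and 14, 15 and 27 in dKO (DESeq2 adjusted p = 8.2e-04, edgeR 0.108). L1Md_A_dup16482 (7220 bp) had 1 read in WT, 2 in Dnmt3C KO, none in Nrf1 cKO and 19, 16 and 13 reads in dKO (DESeq2 adjusted p = 0.0014, edgeR 0.126). In both, every dKO library was above all others. L1Md_A_dup4695 is an intergenic copy of 9059 bp at chr5:68213180-68222238. It had 0 and 4 reads in WT, 32, 5 and 14 in Dnmt3C KO libraries, 0, 2 and 1 in those of Nrf1 cKO and 35, 71 and 36 in the dKO, with an adjusted p of 1.5e-04 by DESeq2 and 0.086 by edgeR for dKO over Nrf1 cKO. The dKO libraries were the 3 highest of the 11. L1Md_A_dup7789 (7043 bp, chr9:79901928-79908970) and L1Md_A_dup7788 (2351 bp, chr9:79899549-79901899) are neighbours in an intron of Filip1, both antisense to the gene. L1Md_A_dup7789 had 0 and 0 reads in WT, 10, 15 and 2 in Dnmt3C KO libraries, 0, 1 and 0 in those of Nrf1 cKO and 21, 76 and 20 in the dKO (DESeq2 adjusted p = 7.6e-04, edgeR 0.088). L1Md_A_dup7788 had 0 and 3 reads in WT, 19, 0 and 14 in Dnmt3C KO libraries, 0, 0 and 1 in those of Nrf1 cKO and 11, 34 and 20 in the dKO (DESeq2 adjusted p = 0.0055, edgeR 0.104). Being neighbours, they are not separate evidence.

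L1Md_A_dup12039 (6624 bp, chr10:110008982-110015605), in an intron of Nav3 on the sense strand, had no read in WT or Nrf1 cKO, 8, 7 and 9 reads in Dnmt3C KO and 17, 43 and 23 in dKO (DESeq2 adjusted p = 1.8e-04, edgeR 0.088). All 3 Dnmt3C KO libraries thus lay above WT and below dKO. L1Md_A_dup6855 (3662 bp, chr8:21408007-21411668, intergenic) had 0 and 4 reads in WT, 1, 0 and 0 in Dnmt3C KO, 0 in all 3 Nrf1 cKO libraries and 12, 14 and 11 in dKO (DESeq2 adjusted p = 0.0051, edgeR 0.239). Dnmt3C KO overlapped with WT here. L1Md_A_dup6013 (7355 bp, chr7:5269032-5276386, intergenic) had 0 and 1 reads in WT, 4, 0 and 16 in Dnmt3C KO libraries, 0, 1 and 0 in those of Nrf1 cKO and 13, 24 and 18 in the dKO (DESeq2 adjusted p = 0.0076, edgeR 0.098). Reads that map to several copies were shared out among them by the authors' counting, so a read on a single copy of this young subfamily is an assignment and not a proven origin.

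The copies of 7000 bp or more were widely detected in dKO, while the share of their reads held by the highest copies was not computed. WT libraries detected 10 and 16 of the 110 copies, Dnmt3C KO 53, 40 and 42, Nrf1 cKO 4, 15 and 16, and dKO 82, 95 and 90. Beside L1Md_A_dup4695 and L1Md_A_dup7789, those with the most reads were L1Md_A_dup15192 (7445 bp, chr16:28292920-28300364, intron of Fgf12, antisense) with 7, 24 and 35 reads in dKO, L1Md_A_dup15047 (9262 bp, chr15:91984832-91994093, intergenic) with 8, 31 and 26, and L1Md_A_dup14042 (8391 bp, chr14:68469684-68478074, antisense in an intron of the lincRNA Gm31227) with 8, 30 and 28. Each of these 3 had at most 1 read in any WT or Nrf1 cKO library.

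**Figure D4:**
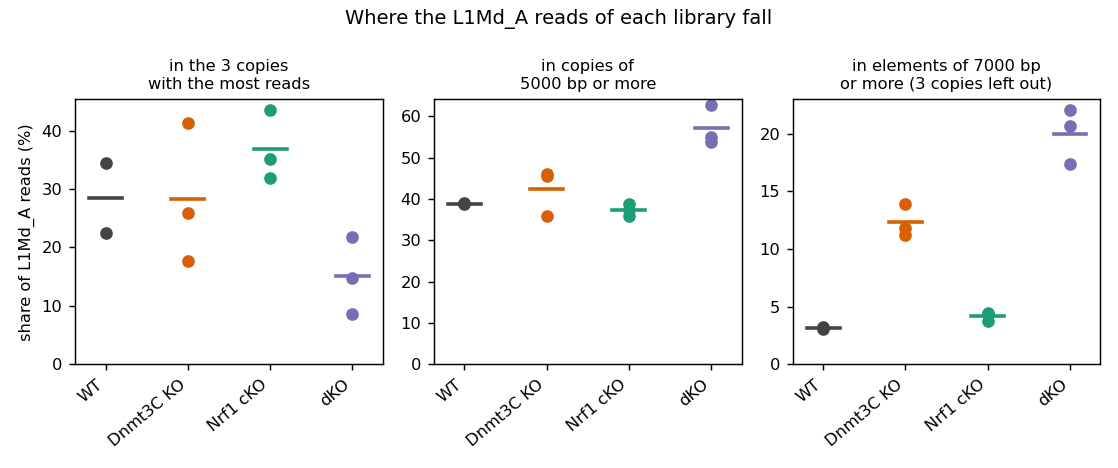
Share of the L1Md_A reads of each library (y axis, %) by genotype (x axis), with libraries as points and means as bars, for the 3 copies with the most reads (left), copies of 5000 bp or more (middle) and joined elements of 7000 bp or more among the remaining copies (right). On the right, WT and Nrf1 cKO lie between 3.04 and 4.47%, Dnmt3C KO between 11.2 and 13.9% and dKO at 17.3% or above.

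Copies were also sorted by position relative to genes. Of the 5725 copies, 3977 were intergenic, 939 lay in an intron on the antisense strand, 732 in an intron on the sense strand, 42 on the sense and 35 on the antisense strand of an exon (GENCODE M21). Antisense intronic copies of 5000 bp or more took 2.11 and 2.28 CPM in WT, 6.75, 4.48 and 6.16 in Dnmt3C KO libraries, 1.21, 2.86 and 2.21 in those of Nrf1 cKO and 14.4, 39.1 and 27.0 in the dKO. Every Dnmt3C KO library was above WT. Sense intronic copies of the same length took 9.04 and 10.2 CPM in WT, 8.88, 6.66 and 9.50 in Dnmt3C KO libraries, 3.64, 5.72 and 6.78 in those of Nrf1 cKO and 13.9, 23.4 and 21.1 in the dKO. On this strand, where reads of an unspliced host transcript are also counted, Dnmt3C KO overlapped with WT and Nrf1 cKO was below it. The part of host transcripts was not tested, and the share of all features with Nrf1 cKO wholly below WT was not counted. Intergenic copies of 5000 bp or more took 13.7 and 18.5 CPM in WT, 24.4, 16.7 and 28.3 in Dnmt3C KO libraries, 8.53, 14.9 and 14.1 in those of Nrf1 cKO and 58.3, 130.7 and 102.5 in the dKO.

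The copy index numbers the copies along the genome, from 1 to 16843 with 1 copy without a number, and was cut into 10 bins. With the 3 copies with the most reads left out, the lowest dKO library was above the highest Nrf1 cKO library in each of the 10 bins. Among all genes and TE subfamilies 4.8% showed this, but the bins are parts of 1 subfamily counted in the same libraries. They are not separate evidence. The log2 ratio of mean CPM in dKO over Nrf1 cKO ran from 1.68 to 2.93. Both ends of that range come from bins with their own features. The bin from 10111 to 11795, on chromosomes Y and 10, had the highest ratio and the fewest copies above 0, 14.3% against 30.2 to 39.9% in the other bins, and took 0.81 and 1.47 CPM in WT, 2.04, 1.17 and 2.86 in Dnmt3C KO libraries, 0.67, 1.25 and 0.93 in those of Nrf1 cKO and 4.19, 9.83 and 7.64 in the dKO. The bin from 6741 to 8425 had the lowest ratio and the highest level in WT, 10.9 and 10.5 CPM.

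**Figure D5:**
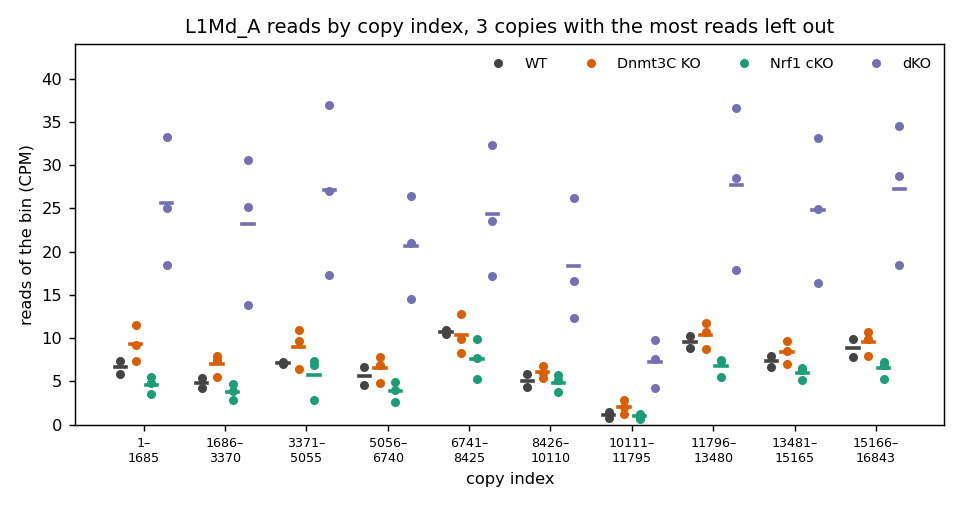
L1Md_A reads (y axis, CPM) in 10 bins of the copy index (x axis) for each library (points) with the mean of each genotype as a bar, the 3 copies with the most reads left out. In every bin the dKO libraries are above those of Nrf1 cKO, and the bin from 10111 to 11795 is the lowest in all genotypes.

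Genes that act on LINE1 were read beside these values from lists of DNA methylation, the nuclear piRNA pathway, chromatin repressors and restriction of LINE1 RNA and protein. In the 4 pairs named above edgeR called none of their members at an adjusted p of 0.01, and DESeq2 called only Gpat2, a piRNA factor of the mitochondrial outer membrane, as lower in dKO than in Dnmt3C KO. Of the piRNA pathway list (21 genes), at an unadjusted p under 0.05 by edgeR, 12 of 21 were lower in Nrf1 cKO than in WT (against 4.22% of all features, with a median log2 fold change of -1.06 against 0.00) and 12 of 21 were lower in dKO than in Dnmt3C KO (against 4.08% of all features, median -0.78 against 0.02). For dKO over Nrf1 cKO, 2 of 21 were higher (against 1.94% of all features) and none lower (median 0.34, against -0.01), and for Dnmt3C KO over WT 1 of 21 was higher (against 2.56% of all features, median 0.17 against 0.01). The DNA methylation list (11 genes, of which 10 could be tested for dKO over Nrf1 cKO) had medians of -0.20, -0.12, 0.05 and 0.17 for Dnmt3C KO over WT, Nrf1 cKO over WT, dKO over Nrf1 cKO and dKO over Dnmt3C KO, with at most 1 member past an unadjusted p of 0.05 in a pair. The lists of chromatin repressors (15 of 16 tested) and of RNA and protein restriction (13 genes) had medians between -0.13 and 0.18 in these pairs, with at most 2 members past an unadjusted p of 0.05 by edgeR. Tex15, a nuclear partner of the piRNA protein MIWI2, is 1 member of the piRNA list, chosen after its values were seen. It moved by more than the list median and does not stand for the list. Tex15 had 62.7 and 75.5 CPM in WT, 108.1, 62.0 and 63.5 in Dnmt3C KO libraries, 37.6, 11.3 and 12.4 in those of Nrf1 cKO and 86.2, 33.7 and 20.7 in the dKO.

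Germ cell markers were read beside the L1Md_A values, as were those of other cell types. Dazl, a germ cell RNA-binding protein, had 91.3 and 97.5 CPM in WT, 175.9, 96.4 and 106.8 in Dnmt3C KO libraries, 44.2, 21.4 and 24.8 in those of Nrf1 cKO and 119.6, 68.1 and 33.3 in the dKO. Over the 30 markers the mean log2(CPM + 1) was 3.96 and 4.23 at the ends of WT, 4.01 to 4.66 in Dnmt3C KO, 2.84 to 3.57 in Nrf1 cKO and 3.12 to 3.99 in dKO. At an unadjusted p under 0.05 by edgeR, 4 of the 29 tested were higher in dKO than in Nrf1 cKO (against 1.94% of all features), with a median log2 fold change of 0.56. In dKO against Dnmt3C KO, 13 of 29 were lower (against 4.08% of all features), with a median of -0.75. Sertoli markers were 6.86 to 7.82 over all libraries on the same scale. At an unadjusted p under 0.05 by edgeR, 3 of 14 were higher in Nrf1 cKO than in WT (against 1.53% of all features) and, in dKO against Dnmt3C KO, 4 of 14 (against 3.1%), with none called. Sox9, which directs Sertoli cell fate, had 96.9 and 44.9 CPM in WT and between 55.5 and 193.8 CPM in the mutants. Red blood cell markers, on the same scale, were at 4.88 and 6.96 in WT and between 4.55 and 5.02 in Dnmt3C KO, and 7 of the 7 tested were lower in Dnmt3C KO at an unadjusted p under 0.05 by edgeR (against 2.86% of all features), with none called by edgeR. Endothelial markers were at 4.30 and 4.31 in WT, 4.04 to 4.49 in Dnmt3C KO, 4.43 to 5.03 in Nrf1 cKO and 3.50 to 4.46 in dKO, and macrophage markers were at 3.47 to 4.58 in dKO and 4.05 to 4.70 in the other libraries. All 3 Dnmt3C KO libraries were above WT (4.05 and 4.16) in macrophage markers, of which 3 of 8 were higher at an unadjusted p under 0.05 by edgeR (against 2.56% of all features), with none called. The lowest value of both lists was that of dKO replicate 2, which was also the library with the highest CPM in copies of 7000 bp or more. In dKO replicates 1, 2 and 3 these copies had 12.0, 29.9 and 22.7 CPM, and the mean of the germ cell markers was 3.99, 3.81 and 3.12. The median log2 fold change of the 8 endothelial markers was -0.68 for dKO over Nrf1 cKO, with 2 lower at an unadjusted p under 0.05 by edgeR (against 0.868% of all features) and none called. Of 9 Leydig cell markers, 2 were higher in Dnmt3C KO than in WT at an unadjusted p under 0.05 by edgeR (against 2.56% of all features). In dKO against Dnmt3C KO, 2 were lower (against 4.08%). DESeq2 called Insl3 as higher in Dnmt3C KO than in WT, and edgeR called none. The part of germ cell, Sertoli cell, Leydig cell, red blood cell, endothelial and macrophage content in the differences between genotypes was not tested.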

How the data were processed

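Poly-A RNA of testes gave 11 libraries, and the labels put each in a genotype. Reads were aligned by the authors with STAR 2.7.3a to GRCm38 (mm10) with GENCODE M25, and deposited raw counts on genes and TE subfamilies for each pair of genotypes (TEtranscripts in multi-mapping mode, reverse-stranded) beside their own DESeq2 1.44.0 columns: log2 fold changes, p-values, normalized means and a test statistic as a score, none of which is used here. A deposited table gives the authors' TPM of TE copies (TElocal), scaled to TE reads only. Libraries of low RNA integrity were left out by the authors. The paper states that littermate controls were used where possible, but the labels do not say how animals or litters relate to libraries. The p-values therefore measure the spread between these libraries.

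Lengths are end minus start of the 0-based table coordinates, and are printed 1-based. TPM times length gave whole reads with a tolerance of 0.001 for 100% of copies. Genes around copies come from GENCODE M21 on the same build, while sequences come from RefSeq promoter windows. No genome sequence was used.

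The main test was edgeR 4.0.16 in R 4.3.3 (filterByExpr, TMM, quasi-likelihood F test, Benjamini-Hochberg over all features, threshold 0.01). The reads of each length class replaced the L1Md_A row. Standard errors are the log2 fold change divided by the root of the F statistic. Copies were tested with limma 3.58.1 on log2(TPM + 1), at a mean of at least 1 TPM. Exact permutation tests (Python 3.11.15) exchanged Dnmt3C genotypes within each Nrf1 background, with a threshold of 0.05. DESeq2 1.42.0, size factors, no filter, other pseudocounts and length limits, a replicate block and leaving out each library were alternatives. Scripts were tested on simulated data.

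Named copies were the 10 with the highest mean TPM, those past the threshold, and the longest and shortest, and named genes were list members past the threshold with Dnmt3c, Nrf1, Ddx4, Dazl and Sox9. Copies called by DESeq2 on reads, the 5 of 7000 bp or more with the most reads, the 3 copies with the most reads, Gpat2 and Tex15 were chosen after their values were seen. The members and lists were chosen with earlier results of these data known.

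Depth was 26063590 to 39365841 counts per library. Reads carry no molecular identifiers, so depth limits counting error only. One read in a copy of 6000 bp is worth 0.0279 to 0.0661 TPM and in a copy of 300 bp 0.559 to 1.32 TPM. Replicates differed by more than sampling noise (chi-square per degree of freedom 17.6 to 61.8), so none is a duplicate.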

Additional observations from a re-analysis of the deposited data

How the results depend on the processing

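Over 341 alternative values, 302 kept their direction and their side of the threshold. DESeq2 in place of edgeR gave log2 fold changes past the threshold for the subfamily of 1.48 (dKO over WT), 1.70 (dKO over Nrf1 cKO) and 1.24 (dKO over Dnmt3C KO). No filter on low counts gave 1.49, 1.70 and 1.24 with edgeR adjusted p of 7.4e-04, 4.4e-04 and 0.0039. DESeq2 also passed the copies of 5000 bp or more at 2.37 (dKO over Nrf1 cKO) and 1.72 (dKO over Dnmt3C KO), the shorter copies at 1.17 and 0.83, and the copies of 7000 bp or more at 2.30 (Dnmt3C KO over WT), 5.04 and 2.29. Joined elements of 7000 bp or more were at 2.23 for dKO over Nrf1 cKO with edgeR (adjusted p = 0.084), and at 4.47 without the 3 copies with the most reads. That limit and those copies were chosen after seeing the data, so all values at 7000 bp or more are a description. DESeq2 on whole reads called 8 copies for dKO over Nrf1 cKO. The causes of these changes were not tested.

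Summed TPM turned Nrf1 cKO over WT to 0.24. The share of TPM in copies of 5000 bp or more was 4.79 points when all 11 labels were permuted (adjusted p = 0.113), 11.7 points in whole reads and -0.42 points over the copies above 0 in every library, where the share in the 10 highest copies was 2.32 points. Without the 3 copies with the most reads, summed TPM (0.54), the ratio to L1Md_T (0.41) and the share in the 10 highest copies (-9.43 points) moved past the permutation threshold, and since those copies were chosen after seeing the data these values are a description.

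Leaving out 1 library gave the following lowest and highest log2 fold changes for the subfamily: 0.02 and 0.48 (Dnmt3C KO over WT), -0.43 and 0.0019 (Nrf1 cKO over WT, reversed without WT replicate 2), 1.24 and 1.71 (dKO over WT), 1.54 and 1.91 (dKO over Nrf1 cKO), 1.04 and 1.43 (dKO over Dnmt3C KO), 0.35 and 0.53 (Dnmt3C KO over Nrf1 cKO), and 1.21 and 1.67 (interaction). For copies of 5000 bp or more they were 0.13 and 0.62 (Dnmt3C KO over WT), 2.11 and 2.61 (dKO over Nrf1 cKO, past the threshold without dKO replicate 1, adjusted p = 0.0067) and 1.43 and 1.94 (dKO over Dnmt3C KO). For shorter copies they were -0.086 (without WT replicate 1) and 0.39, 1.02 and 1.37, and 0.68 and 1.01 in the same pairs. For copies of 7000 bp or more they were 2.02 and 2.50, 4.61 and 5.39, and 1.96 and 2.56. No L1Md_A copy was called by limma in any pair (lowest and highest 0), while without WT replicate 1 or 2 limma called 639 or 456 TE copies for Dnmt3C KO over WT and 643 or 457 for Nrf1 cKO over WT. Summed TPM ran from 0.29 to 0.60 and the ratio to L1Md_T from 0.18 to 0.42, both past the threshold without WT replicate 2 or dKO replicate 1. The share in copies of 5000 bp or more ran from 3.50 to 5.73 points and the share in the 10 highest copies from -13.6 to -4.54 points. Where a fit keeps 1 WT library, that library is assumed to vary like the others.

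Replicate numbers showed no steady pairing. Correlations of same-numbered deviations were 0.03 to 0.26 between WT and Dnmt3C KO, 0.09 to 0.24 between Dnmt3C KO and dKO and -0.30 to -0.04 between Nrf1 cKO and dKO. Some libraries have another number in the deposited columns than in their title, so these numbers cannot exclude a pairing by litter. With the replicate number as a block, copies of 7000 bp or more, a limit chosen after seeing the data, passed at 2.25 (Dnmt3C KO over WT) and 5.12 (dKO over Nrf1 cKO). The subfamily was at 0.18, -0.30, 1.35, 1.67 and 1.19 for Dnmt3C KO over WT, Nrf1 cKO over WT, dKO over WT, dKO over Nrf1 cKO and dKO over Dnmt3C KO, with no call changed.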
